A study of Homo sapiens with 16 samples.

Results

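The T cell receptor complex and its first signalling steps were followed through 9 genes: CD3D, CD3E, CD3G and CD247 (the CD3 chains and zeta), PTCRA (the pre-T alpha chain), the kinases LCK and ZAP70, the adaptor LAT and the costimulatory receptor CD28. A probe set, the group of short oligos that reads 1 transcript on the array, was taken as a member where its annotation gave exactly 1 gene symbol and that symbol was on the list. This gave 17 probe sets for the 9 genes, out of 41097 probe sets with 1 symbol and 19775 genes on the array. All 17 probe sets and all 9 genes passed the filter on dim signals, which left 24893 probe sets and 13483 genes in the tests.

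The study used Affymetrix Human Genome U133 Plus 2.0 arrays to measure total RNA from 4 established human lines, Jurkat, DND41, CEM and CUTL1 (also spelled CUTL-1), all derived from T-cell acute lymphoblastic leukaemia. Each line received DMSO, the solvent, or 1 uM PD-0332991 (palbociclib), an inhibitor of the cell cycle kinases CDK4 and CDK6, for 15 h. Each of the 8 groups held 2 arrays, 16 in all. The labels name no genetic change in any group, and each line stands for itself alone. Nothing in the labels says whether the arrays of a group came from different cultures, so the spread behind every p-value is that between arrays and may be technical.

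In a T cell the alpha and beta receptor chains bind antigen but have almost no tail inside the cell, and the signal passes through the CD3 chains and the zeta chain, whose tails carry paired tyrosines. LCK phosphorylates those tyrosines, ZAP70 docks on them and phosphorylates LAT, and LAT gathers the enzymes that start the calcium, Ras and protein kinase C branches. In the thymus the beta chain first pairs with the pre-T alpha chain, and CD28 adds a second signal when it binds its ligands on another cell.

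Sequence upstream of the gene start is shown for 4 members. CD247 and LCK were called higher with PD-0332991 in all 4 lines on their brightest probe set. LAT and PTCRA were among the 3 members called for a difference in response between lines, calls lost in 10 and 11 of 16 fits without 1 array. The window of CD28, the other member so called, is not shown. Each run is the 250 bases before an annotated start, from RefSeq on GRCh38.p14, written 5′ to 3′ along the gene's own strand. Capitals mark the core letters of 3 motif families searched on both strands: GGAA or its complement TTCC (the core bound by ETS factors), TGTGGT or ACCACA (bound by RUNX factors) and CANNTG (the E-box bound by basic helix-loop-helix factors). LCK has a start far upstream and a start close to the coding sequence, known as its distal and proximal promoters, and both windows are given. The windows are CD247 (chr1:167518530-167518779, minus strand), PTCRA (chr6:42915803-42916052, plus strand), LAT (chr16:28984553-28984802, plus strand), LCK distal (chr1:32251015-32251264, plus strand) and LCK proximal (chr1:32273871-32274120, plus strand).
CD247: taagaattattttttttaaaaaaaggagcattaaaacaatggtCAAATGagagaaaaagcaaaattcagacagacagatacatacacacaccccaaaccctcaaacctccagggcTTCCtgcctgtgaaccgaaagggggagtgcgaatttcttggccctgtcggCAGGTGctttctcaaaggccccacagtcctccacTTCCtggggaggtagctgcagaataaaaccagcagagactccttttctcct
PTCRA: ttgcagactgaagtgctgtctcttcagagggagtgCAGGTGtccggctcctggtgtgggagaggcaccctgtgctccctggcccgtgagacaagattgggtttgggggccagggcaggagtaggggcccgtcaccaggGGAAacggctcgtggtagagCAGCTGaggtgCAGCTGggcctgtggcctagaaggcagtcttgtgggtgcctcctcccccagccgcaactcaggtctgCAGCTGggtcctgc
LAT: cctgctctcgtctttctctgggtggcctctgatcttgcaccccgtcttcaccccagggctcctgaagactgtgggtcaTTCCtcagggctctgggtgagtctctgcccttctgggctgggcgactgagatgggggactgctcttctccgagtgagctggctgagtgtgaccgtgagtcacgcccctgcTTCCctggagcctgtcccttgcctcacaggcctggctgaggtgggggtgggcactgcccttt
LCK distal: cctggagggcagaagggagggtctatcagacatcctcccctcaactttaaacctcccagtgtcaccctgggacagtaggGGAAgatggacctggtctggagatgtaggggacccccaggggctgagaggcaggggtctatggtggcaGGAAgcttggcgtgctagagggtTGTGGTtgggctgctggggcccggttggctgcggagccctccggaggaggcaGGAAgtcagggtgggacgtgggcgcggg
LCK proximal: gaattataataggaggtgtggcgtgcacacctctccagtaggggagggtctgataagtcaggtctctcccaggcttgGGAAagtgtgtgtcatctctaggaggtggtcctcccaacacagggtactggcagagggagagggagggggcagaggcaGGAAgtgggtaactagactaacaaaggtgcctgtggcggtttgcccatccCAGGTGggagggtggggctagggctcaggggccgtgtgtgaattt
CD247 held 2 GGAA cores and 2 E-boxes, PTCRA held 1 GGAA core and 4 E-boxes, and the LAT window shown held 2 GGAA cores and no E-box. A second LAT window (chr16:28984802-28985051), not shown, held 3 GGAA cores and 2 E-boxes. The distal LCK window held 3 GGAA cores and 1 TGTGGT, and the proximal one held 2 GGAA cores and 1 E-box. RefSeq windows were found for 7 of the 9 members, 11 windows in all. GGAA stood in 10 of the 11, against 92.7% of all 35116 windows of this length in the table, CANNTG in 7 (61.8%) and TGTGGT in 3 (11%). The TCF and LEF motif TTCAAAG (3.8% of all windows) and the E2F motif TTCCCGC (5.52%) stood in 0 of the 11. A match is a description of these letters and shows neither binding nor a cause. CD3E, CD3D and CD3G lie next to each other, in that order, in the RefSeq gene table.

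Values are log2 of the deposited intensity, which ran from 2.14 to 14.67 over all arrays. Probe sets bind with different strength, so levels are compared between lines for 1 probe set and never between genes. Where a gene had several probe sets, the one with the highest mean stood for it, and the others are described afterwards. Changes are PD-0332991 minus DMSO on the log2 scale with the standard error (SE), from limma fitted to all genes at once, and a gene was called at a Benjamini-Hochberg adjusted p under 0.05 over the 13483 genes. The average effect is the mean change over the 4 lines. Replicate arrays correlated across genes at r of 0.993 to 0.998, and the 2 DND41 arrays with PD-0332991 lay farthest apart. The probe sets for 18S ribosomal RNA, a sign of how much ribosomal RNA entered the signal, had a PD-0332991 minus DMSO difference of -0.21 (exact permutation test within lines, two-sided p = 0.177). They were lower on both PD-0332991 arrays of DND41 (12.45 and 12.75) than on its DMSO arrays (13.21 and 13.26), and likewise in CUTL1 (12.80 and 12.67 against 13.28 and 13.17), and their part in the results for those lines was not tested. T-lineage markers were bright in every group, with a summed intensity of 31570 to 44600 in DMSO and 34760 to 50130 with PD-0332991. Among the markers of other cell types, 4 of 5 measured myeloid genes (CD14, LYZ, MPO and ITGAM) and 3 of 5 measured B cell genes (MS4A1, PAX5 and BLNK) stayed under the dim limit of 4.88 in every group mean. The myeloid CSF1R (up to 5.40) and the B cell genes CD79A (7.48 to 10.86) and CD79B (5.24 to 7.76) stood above it. In the remaining lists 4 of 7 NK and cytotoxic genes and 4 of 8 epithelial, fibroblast and endothelial genes stayed under it. The erythroid and megakaryocyte list had 0 of 5 such genes. Group means reached 10.79 for PECAM1 (Jurkat), 8.89 for NKG7 and 8.30 for PRF1 (both CUTL1), all with PD-0332991.

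**Figure D1:**
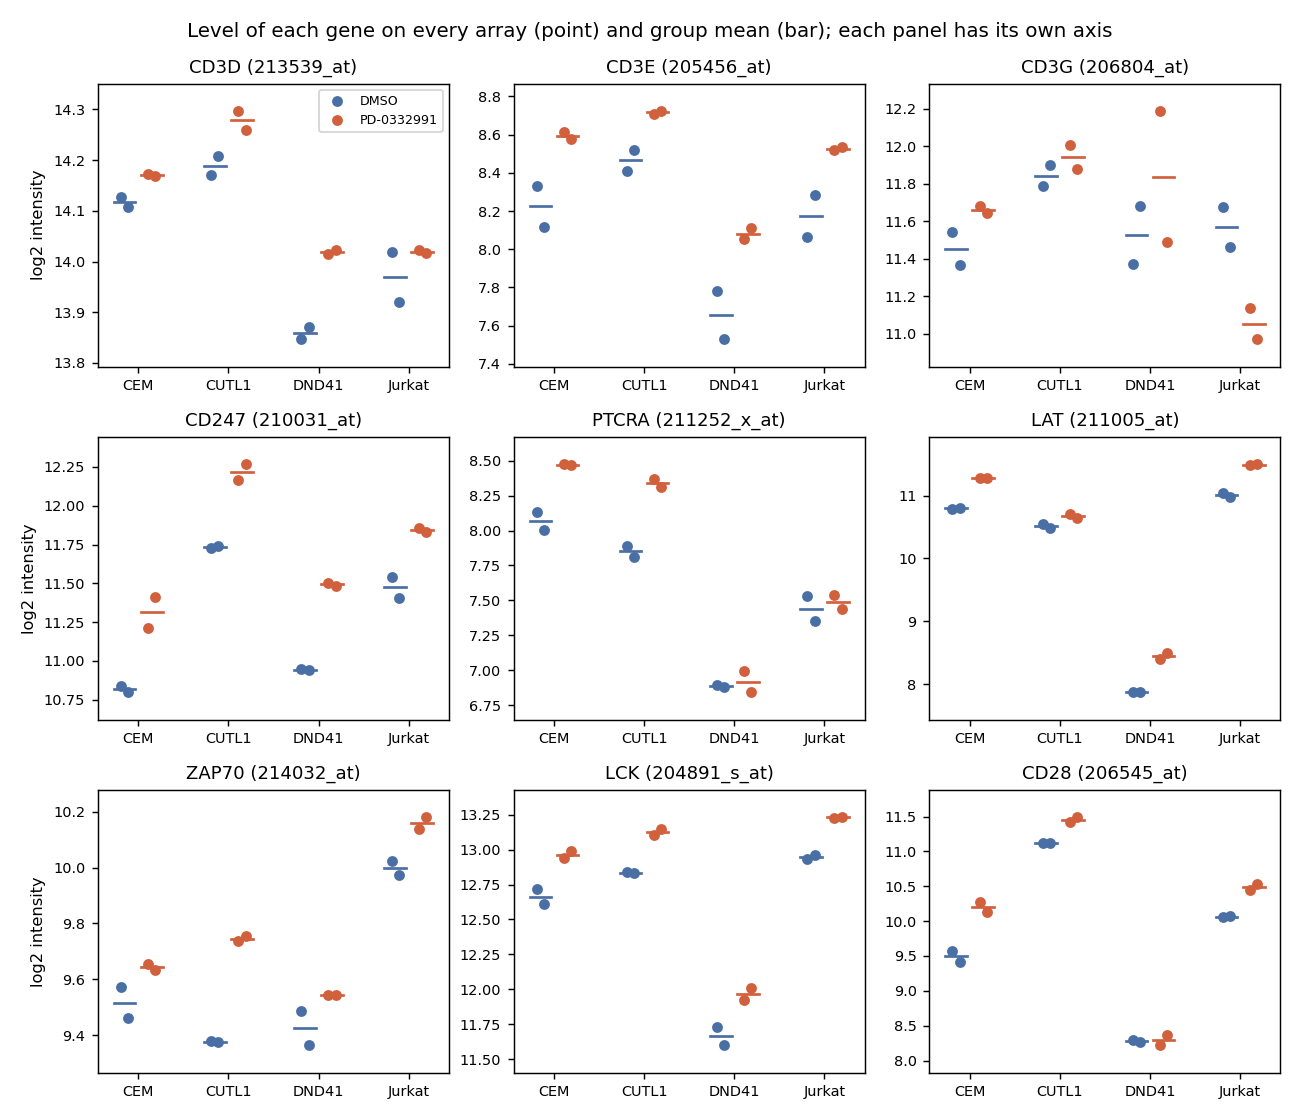
Level of each member gene (log2 intensity, vertical axis, a separate range for each panel) on every array, by line, with blue points for DMSO, orange points for PD-0332991 and a bar at each group mean of 2 arrays. LCK and CD247 lay higher with PD-0332991 in each line, while CD3G in Jurkat lay lower and DND41 stood far below the other lines for LAT.

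With PD-0332991, 8 of the 9 genes rose in the average effect and 0 fell, where 26.7% of all genes tested were called higher and 20% lower. The largest average rises were those of CD247, LAT, CD28 and CD3E, between 1.27-fold and 1.39-fold, and CD3G was the gene not called. The median change of the 9 genes was 0.29, against 0.035 over all genes. By line, 6 genes were called higher in CEM (background 16.5%), 5 in CUTL1 (14.6%), 4 in DND41 (11.1%) and 5 in Jurkat (15.6%), with 0 called lower in any line (background 11.6%, 12.7%, 17.1% and 11.4%). The DND41 background depends on scaling: 1495 genes were called higher and 2305 lower there, against 900 and 2880 once each array was centred on its median, 2156 and 1760 after quantile normalisation, and 1898 and 1839 with cyclic loess. The medians of the 9 changes were 0.37, 0.29, 0.30 and 0.28 in that order, against 0.015, 0.050, 0.014 and 0.047 over all genes. CD247 and LCK were called higher in all 4 lines, which 3.65% of all genes were. With the mean of all probe sets of a gene LCK was called in all 4 lines and CD247 in 3, not in DND41. Both PD-0332991 arrays lay above both DMSO arrays in all 4 lines for CD3E, CD247, LAT, ZAP70 and LCK, as for 10.7% of all genes. In a single line both treated arrays lay above both DMSO arrays for 35.3% of all genes in CEM, 37.5% in CUTL1, 31.7% in DND41 and 38.6% in Jurkat, and below both for 29.4%, 25.3%, 32.8% and 25.2%. When each line counted as 1 replicate, 4 lines in all, limma called CD3E, CD247, LAT and LCK higher (adjusted p = 0.0152, 0.00669, 0.0211 and 0.0199) and not the other 5, with a background of 9.35% called higher and 9.53% lower.

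**Figure D2:**
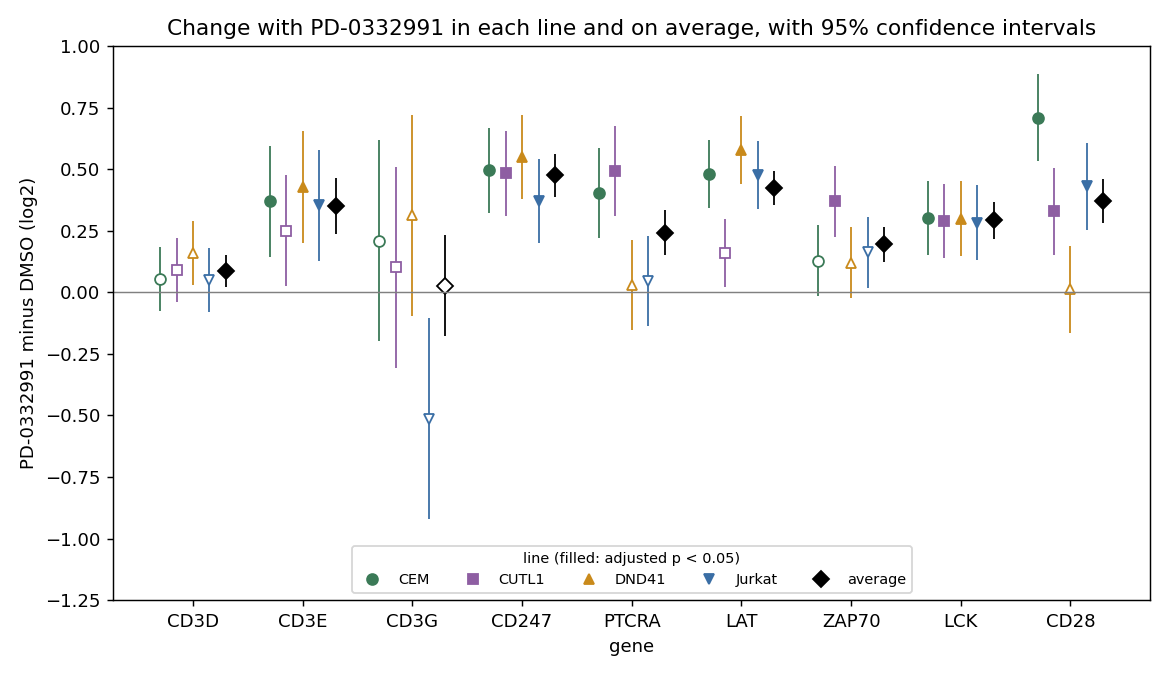
Change with PD-0332991 against DMSO (log2, vertical axis) for each of the 9 genes in each line and on average, with 95% confidence intervals from limma and filled symbols at an adjusted p under 0.05. LCK changed by 0.28 to 0.30 in every line, whereas CD28 ranged from 0.012 in DND41 to 0.71 in CEM.

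CD247 is the zeta chain, which carries most of the paired tyrosines of the complex. In DMSO its level was 10.84 and 10.80 in CEM, 11.73 and 11.74 in CUTL1, 10.95 and 10.94 in DND41, and 11.54 and 11.40 in Jurkat. With PD-0332991 it was 11.22 and 11.41 in CEM, 12.16 and 12.27 in CUTL1, 11.51 and 11.48 in DND41, and 11.86 and 11.83 in Jurkat. In each line both treated arrays lay above both DMSO arrays, with no overlap. The rise was 0.49, 0.48, 0.55 and 0.37 in CEM, CUTL1, DND41 and Jurkat (SE 0.078 each), with limma adjusted p of 0.000752, 0.000749, 0.000446 and 0.00460. The average was 0.47 (SE 0.039, 1.39-fold, adjusted p = 1.39e-06), and the F test of a difference in response between lines gave an adjusted p of 0.601. With the mean of its 2 probe sets the average rise was 0.24 (adjusted p = 0.000179).

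CD3E, a chain needed for the complex to assemble, stood at 8.33 and 8.12 in CEM, 8.41 and 8.52 in CUTL1, 7.78 and 7.53 in DND41, and 8.06 and 8.29 in Jurkat with DMSO. With PD-0332991 it stood at 8.61 and 8.58, 8.71 and 8.72, 8.05 and 8.11, and 8.52 and 8.54 in the same order. No treated array overlapped the DMSO arrays of its line. The average rise was 0.35 (SE 0.052, 1.27-fold, adjusted p = 0.000155). CEM, DND41 and Jurkat were called (0.37, 0.43 and 0.35, SE 0.10) and CUTL1 was not (0.25, adjusted p = 0.0968), although the response was not shown to differ between lines (adjusted p = 0.776). Leaving out 1 array ended the CEM call without the second DMSO array or either treated array (adjusted p up to 0.161), the DND41 call without its second DMSO array (0.105), and the Jurkat call without its first DMSO array or either treated array (up to 0.195).

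CD3D gave the smallest rise among the genes called, 0.088 on average (SE 0.030, 1.06-fold, adjusted p = 0.0293). Its levels lay between 13.85 and 14.21 in DMSO and between 14.01 and 14.30 with PD-0332991, close to the highest value on any array (14.67). Whether the top of the scale limits its change was not tested. The treated arrays lay above the DMSO arrays in CEM, CUTL1 and DND41 and overlapped them in Jurkat, and the change in no single line was called (adjusted p = 0.0654 to 0.605). The DND41 rise was called with cyclic loess (adjusted p = 0.0389), a stricter filter (0.0291) and an intensity trend in the variance (0.00466). The average call was lost in 9 of the 16 fits that left out 1 array: those without the second DMSO or either treated array of CEM, the first DMSO or first treated array of CUTL1, the first DMSO array of DND41, and the second DMSO or either treated array of Jurkat (adjusted p = 0.0513 to 0.0677). It was also lost with arrays centred on their medians (0.0935), with quantile normalisation (0.0761), with no filter on dim genes (0.0734), with each line by number as a block (0.0828), and when the average was taken without CUTL1 (0.0601) or without DND41 (0.156).

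CD3G was called neither on average nor in any line. In Jurkat it stood at 11.67 and 11.46 with DMSO and at 11.14 and 10.97 with PD-0332991, so both treated arrays were the lower ones. The difference was -0.51 (SE 0.19, 95% interval -0.92 to -0.10, adjusted p = 0.0628) and was not called. In DND41 the treated arrays read 12.19 and 11.49 and lay on both sides of the upper DMSO array (11.37 and 11.68), and the change was 0.31 (adjusted p = 0.236). Without the second treated DND41 array that change was 0.66 and was called (adjusted p = 0.00726), and the Jurkat fall was called too (0.00839). The Jurkat fall was also called without the first treated DND41 array (0.00842), where the DND41 change was -0.038. It was called as well with a stricter filter (0.0413), with 16 added before log2 (0.0456) and with an intensity trend in the variance (0.0255). CEM changed by 0.21 and CUTL1 by 0.10, neither called. The average was 0.027 (SE 0.093, interval -0.18 to 0.23, adjusted p = 0.842), and the F test between lines gave an adjusted p of 0.130. It was 0.0103 without the second treated DND41 array.

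PTCRA rose in CEM and CUTL1 on its brightest probe set. CEM read 8.13 and 8.01 with DMSO and 8.48 and 8.47 with PD-0332991, and CUTL1 read 7.89 and 7.81 against 8.37 and 8.31. DND41 read 6.90 and 6.88 against 6.99 and 6.84, and Jurkat 7.53 and 7.35 against 7.54 and 7.44. The groups were apart in the first pair of lines and overlapped in DND41 and Jurkat. The changes were 0.40 in CEM (adjusted p = 0.00396) and 0.49 in CUTL1 (0.00103), against 0.028 in DND41 and 0.045 in Jurkat (0.827 and 0.755, SE 0.083 each). The average was 0.24 (SE 0.042, 1.18-fold, adjusted p = 0.000495). The response differed between lines (F test, adjusted p = 0.0363, where 12.6% of all genes were called). Of the 6 pairs of lines, CUTL1 and DND41 differed, by 0.46 (SE 0.12, adjusted p = 0.0392, background 7.15%), and CEM against DND41 (0.38, adjusted p = 0.0644) and CUTL1 against Jurkat (0.45, 0.0772) were not called. Over all genes the other pairs differed in response for 5.14% (CEM and CUTL1), 9.31% (CEM and DND41), 1.97% (CEM and Jurkat), 2.55% (CUTL1 and Jurkat) and 9.52% (DND41 and Jurkat). The F test was no longer called in 11 of the 16 fits without 1 array, all but those without the first DMSO array of CEM, either treated array of DND41 or either DMSO array of Jurkat (adjusted p up to 0.0901, without the first DMSO array of DND41), nor with quantile normalisation (0.119), cyclic loess (0.0661), no filter on dim genes (0.0635) or each line by number as a block (0.0592).

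LCK, the kinase that starts the cascade, rose in all 4 lines on its brightest probe set. With DMSO it read 12.72 and 12.61 in CEM, 12.84 and 12.83 in CUTL1, 11.73 and 11.60 in DND41, and 12.93 and 12.96 in Jurkat. With PD-0332991 it read 12.94 and 12.99, 13.10 and 13.15, 11.92 and 12.01, and 13.23 and 13.23. All treated arrays lay above the DMSO arrays of their line. The rises were 0.30, 0.29, 0.30 and 0.28 (SE 0.069 each), the average was 0.29 (SE 0.034, 1.23-fold, adjusted p = 2.55e-05), and the F test between lines gave an adjusted p of 0.998. The difference in rise between any pair of lines had an SE of 0.097. The calls within a line were lost without the second DMSO array of CEM (adjusted p = 0.0650), the second treated array of CUTL1 (0.0655), the second DMSO array of DND41 (0.0825), and the first DMSO array (0.0560), first treated array (0.0585) or second treated array (0.0613) of Jurkat.

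ZAP70, the kinase that docks on the phosphorylated chains, read 9.57 and 9.46 in CEM, 9.38 and 9.37 in CUTL1, 9.48 and 9.36 in DND41, and 10.02 and 9.97 in Jurkat with DMSO. With PD-0332991 it read 9.65 and 9.63, 9.74 and 9.75, 9.54 and 9.54, and 10.14 and 10.18. The groups did not overlap in any line, with a narrow gap in CEM and DND41. The average rise was 0.19 (SE 0.033, 1.14-fold, adjusted p = 0.000439). CUTL1 was called (0.37, SE 0.066, adjusted p = 0.00147), and CEM, DND41 and Jurkat were not (0.13, 0.12 and 0.16, adjusted p = 0.181, 0.198 and 0.0944). The DND41 rise was called with quantile normalisation (0.22, adjusted p = 0.0349) and cyclic loess (0.22, 0.0358), and the Jurkat rise with a stricter filter (0.0467). The difference between lines was not called (adjusted p = 0.179), so the response is not shown to be stronger in CUTL1.

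LAT, the membrane scaffold phosphorylated by ZAP70, read 10.79 and 10.81 in CEM, 10.55 and 10.48 in CUTL1, 7.87 and 7.87 in DND41, and 11.05 and 10.99 in Jurkat with DMSO. With PD-0332991 it read 11.28 and 11.27, 10.71 and 10.64, 8.39 and 8.50, and 11.48 and 11.50. The groups were apart in every line, least so in CUTL1. The rise was 0.48 in CEM, 0.58 in DND41 and 0.47 in Jurkat (SE 0.063, adjusted p = 0.000218, 6.52e-05 and 0.000207), against 0.16 in CUTL1 (adjusted p = 0.0843). The average was 0.42 (SE 0.031, 1.34-fold, adjusted p = 5.76e-07). The response differed between lines (F test, adjusted p = 0.0360), and of the pairs of lines CUTL1 and DND41 differed, by -0.42 (SE 0.089, adjusted p = 0.0189). The difference of CUTL1 from CEM (adjusted p = 0.0643) and from Jurkat (0.0955) was not called. The F test was lost in 10 of the 16 fits without 1 array, all but those without the second treated array of CEM, the second DMSO array of CUTL1, either treated array of DND41 or either DMSO array of Jurkat (adjusted p up to 0.120, without the second treated array of CUTL1). It was also lost with arrays centred on their medians (adjusted p = 0.0531), with no filter (0.0784), without probe sets that can bind several transcripts (0.0517), and with the replicate number (0.0504) or each line by number (0.101) as a block, whereas the CUTL1 rise was called with quantile normalisation (0.0453), a stricter filter (0.0386) and an intensity trend (0.0480).

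CD28 rose in CEM, CUTL1 and Jurkat on its brightest probe set and was not called in DND41. With DMSO it read 9.57 and 9.42 in CEM, 11.12 and 11.12 in CUTL1, 8.29 and 8.26 in DND41, and 10.06 and 10.07 in Jurkat. With PD-0332991 it read 10.28 and 10.13, 11.42 and 11.49, 8.22 and 8.36, and 10.45 and 10.54. The treated arrays lay above in CEM, CUTL1 and Jurkat and on both sides of the DMSO arrays in DND41. The change was 0.71 in CEM (1.63-fold, adjusted p = 7.96e-05), 0.33 in CUTL1 (0.00993), 0.43 in Jurkat (0.00215) and 0.012 in DND41 (interval -0.16 to 0.19, 0.925), with an SE of 0.080 each and an average of 0.37 (SE 0.040, adjusted p = 1.35e-05). The response differed between lines (F test, adjusted p = 0.0131), with CEM above DND41 by 0.70 (SE 0.11, adjusted p = 0.00954, background 9.31%) and DND41 below Jurkat (-0.42, adjusted p = 0.0431, background 9.52%). CUTL1 was not shown to differ from DND41 (0.32, adjusted p = 0.117) or from CEM (0.38, 0.0843). The F test missed the threshold without the first DMSO array of DND41 (adjusted p = 0.0525), and the CUTL1 call was lost without its second treated array (0.0766).

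Before treatment the lines carried these genes at unequal levels. In DMSO 8 of the 9 genes differed between lines by limma's F test, where 71.2% of all genes did, so the count says little beyond the background. By pair of lines the share of all genes that differed was 43.4% for CEM and CUTL1, 45.7% for CEM and DND41, 48.1% for CEM and Jurkat, 44.1% for CUTL1 and DND41, 49.5% for CUTL1 and Jurkat, and 46.9% for DND41 and Jurkat. The range between the highest and the lowest line was at least 1 on the log2 scale for 4 members, LAT, CD28, LCK and PTCRA (24.7% of all genes), and its median was 0.91 for the members and 0.55 for all genes. DND41 had the lowest mean for 6 members: CD3D, CD3E, PTCRA, LAT, LCK and CD28. For CD3D its difference from Jurkat was not called (limma adjusted p = 0.154). The share of all genes with their lowest mean in DND41 was not counted, so this count has no background beside it. In RNA from a whole culture, fewer cells with a transcript and less transcript per cell cannot be told apart.

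LAT had the widest range, 3.15 or 8.85-fold. Its mean was 11.02 in Jurkat, 10.80 in CEM, 10.51 in CUTL1 and 7.87 in DND41, and each neighbour in that order differed (adjusted p = 0.0130, 0.00316 and 2.34e-11). This order holds for the brightest probe set. On 209881_s_at, the other LAT probe set, CEM (9.97) stood above Jurkat (9.82) and CUTL1 (9.76), and DND41 was again lowest (6.94). With PD-0332991 the DND41 arrays still lay below every DMSO array of the other lines. CD28 spanned 2.85 (7.19-fold), with 11.12 in CUTL1, 10.06 in Jurkat, 9.50 in CEM and 8.28 in DND41, every step called (adjusted p = 5.04e-07, 0.000111 and 1.85e-07).

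LCK spanned 1.28 (2.43-fold). Neighbours in the order Jurkat (12.95), CUTL1 (12.84) and CEM (12.66) were not shown to differ (adjusted p = 0.210 and 0.0631), and CEM stood above DND41 (11.67, adjusted p = 2.68e-07). On 204890_s_at, the other LCK probe set, CEM (11.42) stood above CUTL1 (11.23), with Jurkat highest (11.64) and DND41 lowest (10.05). PTCRA spanned 1.18 (2.27-fold). CEM (8.07) and CUTL1 (7.85) were not shown to differ (adjusted p = 0.0540), Jurkat (7.44) stood below CUTL1 (adjusted p = 0.00140), and DND41 (6.89) stood below Jurkat (0.000181).

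The CD3 chains differed less. CD247 was highest in CUTL1 (11.73), then Jurkat (11.47), DND41 (10.94) and CEM (10.82) on its brightest probe set. The first and second steps were called and the last was not (adjusted p = 0.0158, 0.000155 and 0.214). On its other probe set, 234462_at, no difference between lines was called (F test, adjusted p = 0.741). There CUTL1 had the lowest mean (5.82) and Jurkat the highest (5.96). CD3E was lowest in DND41 (7.65, against 8.17 in Jurkat, adjusted p = 0.00136), and the steps from Jurkat to CEM (8.22) and on to CUTL1 (8.47) were not called (adjusted p = 0.725 and 0.0800). CD3D ran from 14.19 in CUTL1 through 14.12 in CEM and 13.97 in Jurkat to 13.86 in DND41, with no called step between neighbours although the lines differed (F test, adjusted p = 0.00138). CD3G ran from 11.84 in CUTL1 through 11.57 in Jurkat and 11.53 in DND41 to 11.45 in CEM, and was the member for which no difference between lines was called (adjusted p = 0.268, and 0.0492 or 0.0491 without the first or second treated array of DND41). ZAP70 stood apart in Jurkat (10.00) from CEM (9.52, adjusted p = 8.12e-05), and the steps on to DND41 (9.42) and CUTL1 (9.38) were not called (adjusted p = 0.279 and 0.614).

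Over the 16 arrays some members followed each other closely, which mostly restates the order of the 4 lines, since the arrays share lines. LAT and LCK correlated at r of 0.962, LCK and CD28 at 0.889, and LCK and CD3E at 0.874. CD3G correlated with LAT at -0.253 and with LCK at -0.168. Outside the set, the gene most like LAT was FYB1, an adaptor of the same pathway (r = 0.988), followed by CORO1A, an actin regulator (0.986). FYB1 stood at 5.67 in DND41 and at 9.84, 10.18 and 10.80 in CEM, CUTL1 and Jurkat with DMSO. For CD28 the most alike genes were PTPN6, the phosphatase SHP-1 (r = 0.988), and MVB12B (0.984), and for LCK they were LPXN (0.993) and ACAP1 (0.985).

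The other probe sets of the members were fitted among all 24893 probe sets. In the average effect 14 of the 17 were called higher and 0 lower, against 21.9% and 19.2% of all probe sets. The 3 not called were that of CD3G, the second of CD247 (234462_at) and the third of CD28 (211861_x_at, 0.12, adjusted p = 0.100). The second CD247 probe set read 5.59 to 6.34 and its average change was 0.0017 (SE 0.062), while the first (210031_at) changed by 0.47. With the mean of both probe sets the CD247 rise in DND41 was 0.17 and no longer called (adjusted p = 0.0978). Both probe sets of LCK rose on average, by 0.29 (204891_s_at) and 0.31 (204890_s_at). By line the second changed by 0.22 in CEM (adjusted p = 0.125) and 0.25 in Jurkat (0.0856), not called, and rose by 0.43 in CUTL1 (0.00639) and 0.36 in DND41 (0.0160), with an F test between lines of 0.550. Both of ZAP70 rose on average, by 0.19 (214032_at) and 0.25 (1555613_a_at).

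The second probe set of LAT (209881_s_at) rose by 0.34 on average, and its F test between lines was called (adjusted p = 0.0226, where 7.79% of all probe sets were), while in this fit that of the first (211005_at) was 0.0616. The 3 probe sets of PTCRA were called higher in CUTL1, by 0.49 (211252_x_at), 0.80 (211837_s_at) and 0.72 (215492_x_at), where 10.4% of all probe sets were called higher (12.8% in CEM, 8.07% in DND41 and 11.4% in Jurkat). They parted in the other lines. In CEM the rise was 0.40 on 211252_x_at (adjusted p = 0.00693), and 211837_s_at (0.23, 0.332) and 215492_x_at (0.34, 0.0899) were not called. With the mean of all 3 the CEM rise was 0.33 and was called (0.00688). In DND41 211837_s_at changed by 0.45 (adjusted p = 0.0584) and in Jurkat by -0.46 (0.0573), neither called, where 211252_x_at changed by 0.028 and 0.045. With the mean of all 3 the DND41 change was 0.25 and was called (adjusted p = 0.0246). Their F tests gave adjusted p of 0.0556, 0.0238 and 0.176 in the order of the list. For CD28 the CEM rise was 0.71 on 206545_at, 0.35 on 211856_x_at (adjusted p = 0.0568, not called) and 0.35 on 211861_x_at (0.0377), and with their mean it was 0.47 (0.000980). The Jurkat rise was 0.43 on 206545_at (adjusted p = 0.00397), 0.08 on 211856_x_at (0.707) and 0.01 on 211861_x_at (0.964), so that call rests on 1 of 3 probe sets and was lost with their mean (0.17, adjusted p = 0.135). In DND41 the changes were 0.012, 0.055 and -0.24 in that order, none called. The CD28 F tests between lines gave adjusted p of 0.0238, 0.174 and 0.0590, called on the first only. With the mean of all 3 the F test was called (0.0257). Names ending in _x_at or _s_at mark probe sets that can bind more than 1 transcript or several variants of a gene.

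**Figure D3:**
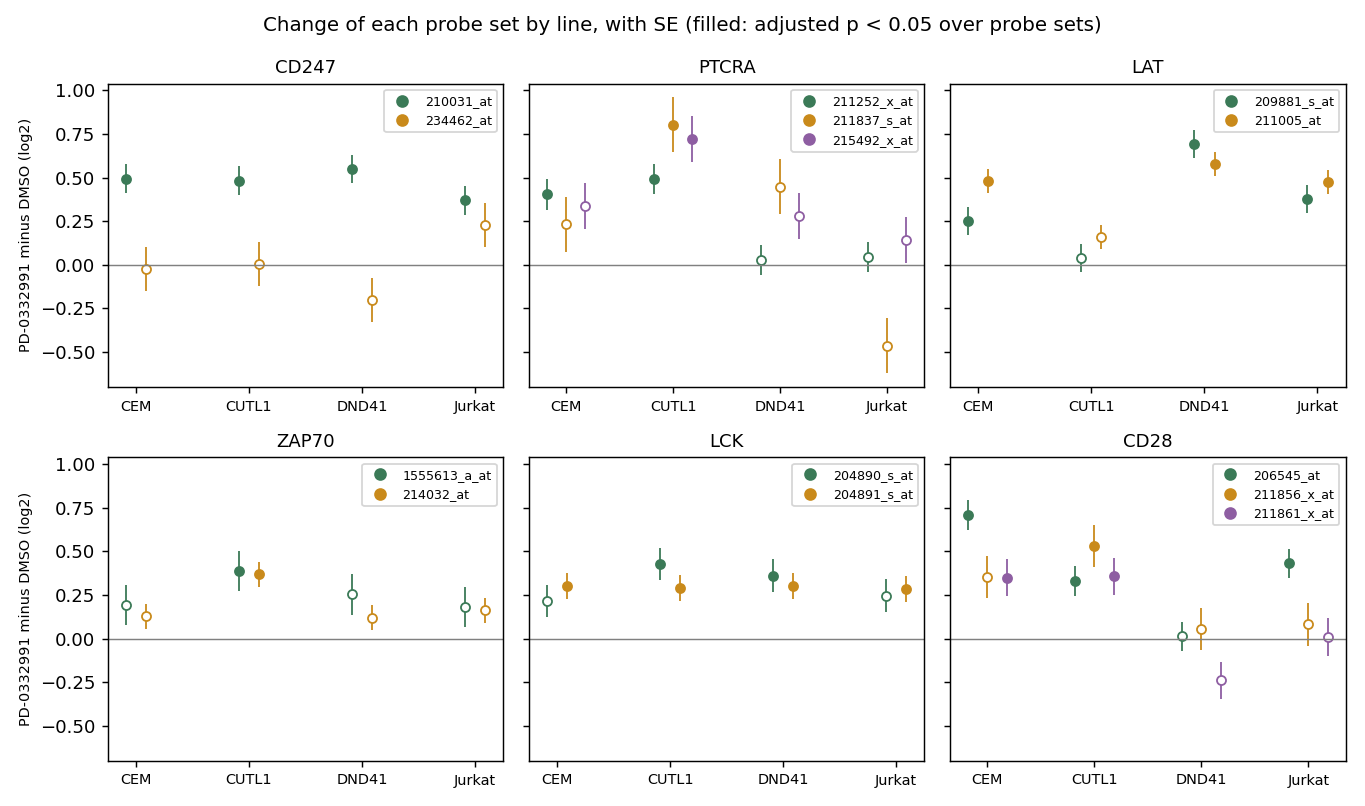
Change with PD-0332991 against DMSO (log2, vertical axis) of each probe set in each line, for the 6 genes with more than 1 probe set, with SE bars and filled points at an adjusted p under 0.05 over all probe sets. The probe sets of LCK and of ZAP70 lay near each other, while those of PTCRA in Jurkat ran from -0.46 to 0.14 and the second of CD247 lay below the first in every line.

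The wider pathway was followed with 92 other genes of T cell receptor signalling, of which 80 had a probe set with 1 symbol and 78 were tested. On average over the lines 56 of the 78 were called higher and 4 lower, the median change of the 78 was 0.25 (0.035 over all genes), and 18 missed the threshold. By line, 46 were called higher and 3 lower in CEM, 29 and 5 in CUTL1, 21 and 5 in DND41, and 40 and 3 in Jurkat, with medians of 0.34, 0.26, 0.10 and 0.28. The shares of all genes called higher and lower were 26.7% and 20% on average, 16.5% and 11.6% in CEM, 14.6% and 12.7% in CUTL1, 11.1% and 17.1% in DND41, and 15.6% and 11.4% in Jurkat. Counted with each line as 1 replicate, 27 rose and 2 fell, against 9.35% and 9.53% of all genes.

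Of the receptor's own partners, TRBC1, a constant region of the beta chain, rose by 0.19 (SE 0.030, adjusted p = 0.000251) and TRAT1, an adaptor bound to the complex, by 0.33 (SE 0.053, 0.000300). Among 14 coreceptors and accessory receptors 11 rose and 0 fell, with a median of 0.33. CD48, a ligand of the SLAM family, rose by 0.73 (SE 0.044), ICOS, a relative of CD28, by 0.42 (SE 0.045) and the adhesion receptor CD2 by 0.37 (SE 0.041), and ICOS had a DMSO range over lines of 5.49 and CD8A one of 4.40. CD48 was called higher in all 4 lines but not equally (F test, adjusted p = 0.00952), from 0.38 in DND41 to 1.17 in CEM. Of 9 kinases and phosphatases 7 rose and 1 fell (median 0.16). The rises included UBASH3A and UBASH3B, phosphatases that restrain the receptor (0.49 and 0.36), and TXK, a kinase of the TEC family, whose change was 0.45 although its DMSO means were under the dim limit in CEM, DND41 and Jurkat. The responses of UBASH3B and TXK differed between lines (F test, adjusted p = 0.0256 and 0.0281). UBASH3B changed by 0.79 in Jurkat and -0.0062 in CUTL1. TXK changed by 1.08 in CUTL1 and 0.56 in CEM, against 0.067 in DND41 and 0.11 in Jurkat. The gene that fell was PTPN2, a phosphatase that acts on LCK (-0.25, adjusted p = 0.00109).

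Among 18 adaptors 14 rose and 0 fell (median 0.32). Those with the smallest p were TESPA1 (0.49), SLA2 (0.44) and SIT1 (0.35), and SLA2 and SIT1 are known as brakes on the receptor. FYB1 and PAG1, a membrane adaptor that recruits the LCK inhibitor CSK, had the widest DMSO ranges of that group (5.13 and 5.10). Of 15 exchange factors, lipid enzymes and protein kinase C genes 11 rose and 1 fell (median 0.21). DGKA, which removes diacylglycerol, rose by 0.54 (SE 0.037), RASGRP1, which diacylglycerol activates, by 0.51 (SE 0.054) and VAV1 by 0.29 (SE 0.032), whereas MALT1, a protease of the NF-kappaB branch, fell by 0.42 (adjusted p = 3.35e-05). In this group INPP5D and VAV3 had the widest DMSO ranges (3.74 and 2.65).

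The calcium and NFAT branch was mixed: 6 of 13 rose and 2 fell, with a median of 0.086. ITPKB (0.36) and NFATC1 (0.28) rose, while ITPR3, a calcium release channel, fell by 0.75 (SE 0.051, adjusted p = 2.56e-07) and PPP3CA, a catalytic chain of calcineurin, by 0.15 (adjusted p = 0.0372). The response of ITPKB differed between lines (F test, adjusted p = 0.0150), from 0.092 in DND41 to 0.57 in Jurkat. That of ITPR3 did too (F test, adjusted p = 0.0436), from -0.53 in DND41 to -1.16 in CUTL1. The widest DMSO ranges in this branch were those of NFATC2 (4.49) and PPP3CA (2.26). Of 7 genes of degradation and feedback 5 rose (median 0.29), among them CBLB, a ubiquitin ligase that damps the receptor (0.71, SE 0.084), the ERK phosphatase DUSP6 (0.69, SE 0.082) and the early activation marker CD69 (0.65, SE 0.12). The responses of DUSP6 and CD69 differed between lines (F test, adjusted p = 0.00141 and 0.00626): DUSP6 rose by 1.78 in Jurkat and 0.93 in CEM and CD69 by 1.61 and 1.05, while in DND41 their changes were -0.28 and -0.64, not called (adjusted p = 0.231 and 0.0618). EGR1, counted among the 5 by its average rise of 0.29, also differed in response between lines (F test, adjusted p = 0.000619). EGR1 was called higher in Jurkat (1.48) and CUTL1 (0.64) and lower in DND41 (-1.004, limma adjusted p = 0.00147). In CEM its change was 0.065, not called. DUSP6 and EGR1 had the widest DMSO ranges (6.52 and 4.47).

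**Figure D4:**
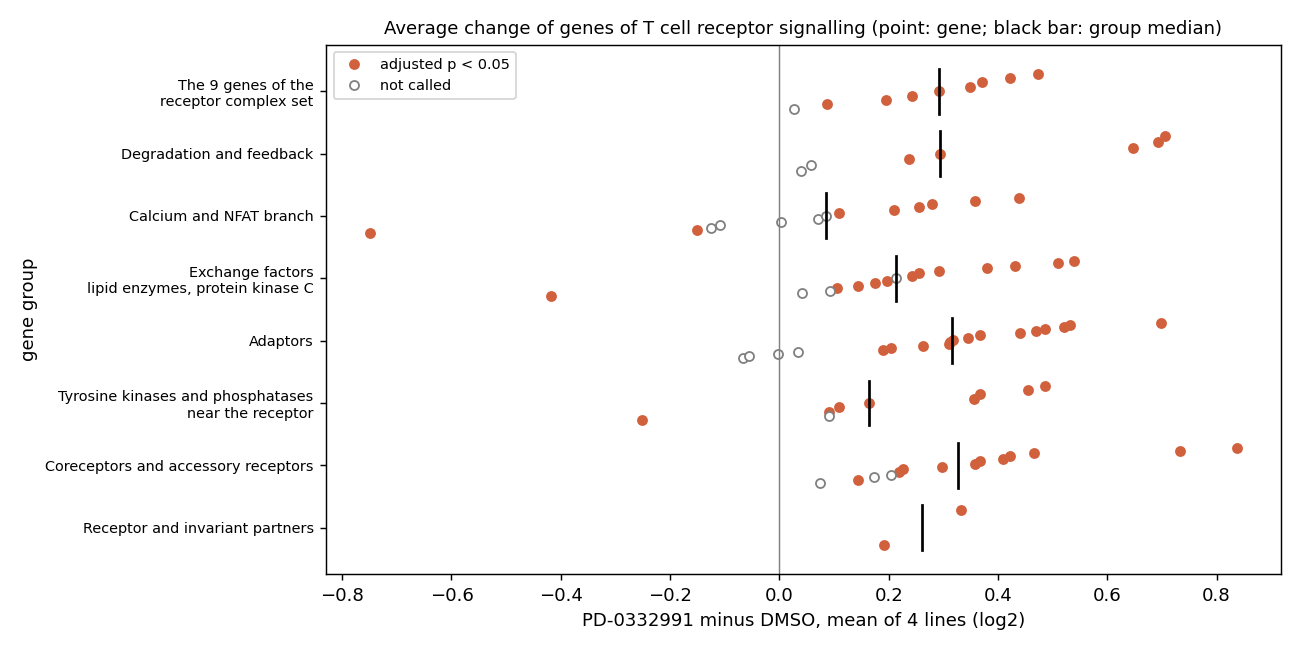
Average change over 4 lines (log2, horizontal axis) of the 9 genes and of 78 other genes of T cell receptor signalling in 7 groups, where each point is a gene, filled at an adjusted p under 0.05, and black bars are group medians. The group medians run from 0.086 for the calcium and NFAT branch to 0.33 for coreceptors and accessory receptors, and 4 genes that fell lie left of 0.

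Markers of other cell types were read beside these rises. Of the B cell list 2 of 6 genes were tested and CD79A rose (0.25), with a summed intensity of 264 to 1568 in DMSO and 269 to 2237 with PD-0332991. Of the NK and cytotoxic list 3 of 8 were tested and PRF1 rose (0.24), with sums of 371 to 830 and 401 to 937. Myeloid markers had 1 gene tested and 0 called, with sums of 89.4 to 105 and 91.1 to 107. Of the erythroid and megakaryocyte list 5 were tested and ALAS2 rose (0.25), and of the epithelial, fibroblast and endothelial list 4 were tested and PECAM1 rose (0.35). ALAS2 lay under the dim limit in DMSO in every line. It went from 4.61 to 4.80 in CEM, 4.82 to 4.94 in CUTL1, 4.43 to 5.18 in DND41 and 4.69 to 4.64 in Jurkat. No gene of these lists was called lower on average, and the part of these genes in the results was not tested. The T-lineage list had 8 of 9 genes called higher, where 26.7% of all genes tested were. Of these 8, 2 were members (CD3D and CD3E), and CD3G was the gene of the list not called.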

How the data were processed

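The authors deposited 1 table of intensity values per probe set for 16 arrays, made with RMA per the submitters' processing notes; no version of it was found, and which probe set definition it used is unknown. Per the labels' protocols, total RNA was amplified and labelled with biotin. The values were on a linear scale with array medians of 28.5 to 31.2, so log2 was taken with no offset and no further scaling. Genes came from the platform annotation; 1801 probe sets with several symbols and 11777 without a name here were left out. The dim filter kept genes with a line mean (4 arrays) at or above the median of all values (29.5, log2 4.88). Linear models with 8 group means were fitted with limma 3.58.1 in R 4.3.3 (8 residual and 3.32 prior degrees of freedom), two-sided, and tested on simulated data. Python 3.11.15, pandas 2.3.3 and matplotlib 3.10.9 were used for promoters and figures. The number of arrays limits the precision. The members and lists were chosen with earlier results of these data known. In the wider list, genes were named by the smallest p (3 per group) and the widest DMSO range (2 per group); the 4 that fell, and CD3G among the markers, were named as exceptions after their values were seen. Alternatives covered scaling, probe set choice, the dim filter, an offset, the variance model, left-out arrays and blocks.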

Additional observations from a re-analysis of the deposited data

Results flagged for a closer look

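A total of 3 members responded differently from line to line by limma's F test of the change with PD-0332991, at adjusted p of 0.0131 for CD28, 0.0360 for LAT and 0.0363 for PTCRA over 13483 genes. Of all genes tested, 12.6% were called in the same F test. CD28 rose in CEM, CUTL1 and Jurkat and changed by 0.012 in DND41 on its brightest probe set. With the mean of its 3 probe sets the Jurkat change was 0.17 and not called (adjusted p = 0.135), while the F test was called (0.0257). LAT rose in CEM, DND41 and Jurkat and changed by 0.16 in CUTL1. PTCRA rose in CEM and CUTL1 and changed by 0.028 in DND41 and 0.045 in Jurkat on its brightest probe set, and with the mean of its 3 probe sets it was called in DND41 too (0.25, adjusted p = 0.0246). With 1 array left out the F test of PTCRA was lost in 11 of 16 fits, that of LAT in 10 and that of CD28 in 1.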

How the results depend on the processing

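The 8 average rises had the same sign under every scaling, probe set, filter, offset, variance and block alternative and without any 1 array, but not every call held. Taking each line as 1 replicate left 4 of the 9 members and 27 of the 78 wider genes called higher. That alternative has fewer degrees of freedom and takes its spread from the differences between lines, not between arrays. The lost calls were CD3D (adjusted p = 0.377), PTCRA (0.156), ZAP70 (0.113) and CD28 (0.0752). Without probe sets ending in _x_at and _s_at, LCK and PTCRA had no probe set, 3 members were called in CUTL1, and 1 differed between lines. With no filter on dim genes 1 member differed between lines. Replicate numbers were not taken to pair arrays, since the differences between arrays 1 and 2 of the treatments correlated at 0.0760 in CEM, 0.195 in CUTL1, -0.108 in DND41 and 0.105 in Jurkat; with a replicate block of line by number 1 member differed between lines (LAT 0.101 and PTCRA 0.0592 were lost), and with the number alone 2 did (LAT 0.0504 was lost), while the average count was 7 and 8. The causes were not tested.

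Signs turned only for changes that were not called: centring arrays on their medians gave -0.046 for PTCRA and -0.063 for CD28 in DND41. The mean of all probe sets gave -0.058 for CD28 in DND41 and -0.092 for PTCRA in Jurkat. CD3G on average was -0.033 without the line CEM and -0.068 without DND41, alternatives that were added after seeing the data, as were the settings for the wider list other than scaling. Scaling moved the median of all genes by less than 0.1. Leaving out 1 array at a time gave 4 to 6 members called in CEM, 3 to 5 in CUTL1 (3 without its second treated array), 2 to 5 in DND41 (2 without its second DMSO array), 3 to 6 in Jurkat (3 without its first DMSO array or either treated array) and 0 to 4 for the difference between lines (0 without the first DMSO array of DND41). CD3G ran from -0.060 to 0.12 on average and from -0.038 to 0.66 in DND41, CD28 in DND41 from -0.062 to 0.086, PTCRA in DND41 from -0.047 to 0.10 and in Jurkat from -0.047 to 0.14. The wider list had 51 to 55 higher calls. Apart from left-out arrays, 499 changes of single members held their sign and side of the threshold, 12 lost a call, 13 gained one and 6 turned sign.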
